A study of Homo sapiens with 8 samples.

Results

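Genes whose RNA followed APOBEC3B (A3B) were sought across 2 human uveal melanoma (UVM) lines, 92.1 and MEL290. The A3B-high libraries were those of 92.1 shCtrl and MEL290 A3B OE cells, the A3B-low libraries those of 92.1 shA3B and MEL290 NC cells, and the cell line entered the model as a covariate. A gene was included when its FPKM, a fragment count normalised to transcript length and to all mapped fragments, was at least 1 in every library, which left 10021 of the 19952 gene symbols listed in all 8 libraries. In 92.1, shA3B cells carried a lentiviral short hairpin RNA against A3B and shCtrl cells an empty control vector. In MEL290, A3B OE cells carried full-length A3B on a lentiviral expression vector and NC cells are the control of that line. The lentiviral cells were puromycin-selected populations, and the labels do not say which of the hairpins the sequenced 92.1 cells carried. Each group had 2 libraries, and nothing states that they came from separate cultures, so every p-value measures the spread between these libraries, which may be technical. A3B was lowered in one line and raised in the other by different vectors, so effects of the line, of the vector and of lowering against raising A3B cannot be told apart.

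A3B is a nuclear member of the APOBEC3 family of cytidine deaminases, which convert cytosine to uracil in single-stranded DNA. Such DNA is exposed at replication forks and in R-loops, structures in which RNA pairs with one DNA strand and displaces the other. Unresolved R-loops can stall forks, and the ATR and CHK1 kinases restrain the cell cycle when forks stall. The comparison asks which genes move with A3B whichever way its level was set, as opposed to those that move in one of the lines.

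The summed FPKM was between 609934 and 677946 in the 8 libraries and 11389 to 11524 genes reached 1 FPKM. Read depth is not given with FPKM. All 10 melanocyte markers were at 1 FPKM or more in every 92.1 library, with summed levels of 7286 to 8906 FPKM, led by PMEL, a melanosome matrix protein. MEL290 did not carry this pattern. There 2 of the 10 markers reached 1 FPKM in both NC libraries and 3 in both A3B OE libraries, the sum was 32.8 to 39.4 FPKM, and TYR and OCA2, 2 pigment genes, were listed at 0 in all 4 libraries. Of 6 epithelial markers, the keratins KRT8 and KRT18 were at high levels in MEL290, and the others were not. EPCAM and KRT5 were under 1 FPKM in all 4 MEL290 libraries, CDH1 was at 0.18 to 2.135 FPKM and KRT14 at 0.41 to 2.36 FPKM. The T cell marker CD3E was listed at 0 in all 8 libraries.

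A3B itself separated the groups as labelled. Its level was 35.95 and 32.3 FPKM in the shCtrl libraries and 1.98 and 2.37 FPKM in the shA3B libraries of 92.1, and 2.67 and 2.19 FPKM in the NC and 28.4 and 27.5 FPKM in the A3B OE libraries of MEL290. The 4 A3B-high libraries lay far above the 4 A3B-low libraries, and the levels of each kind were close in the lines. Over both lines APOBEC3B was higher by 3.27 on the log2(FPKM + 1) scale (standard error 0.11, adjusted p = 3.06e-07, limma with Benjamini-Hochberg adjustment). The change was 3.47 in 92.1 and 3.08 in MEL290 and did not differ detectably between them (adjusted p = 0.29, limma). The gene lies at chr22:38982347-38992804 of GRCh38 on the plus strand.

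Of the other APOBEC3 genes, APOBEC3C and APOBEC3F could be tested and neither was called over both lines (adjusted p = 0.78 and 0.57, limma). APOBEC3C was at 19.8 to 22.4 FPKM in 92.1 and 5.21 to 6.43 FPKM in MEL290, with changes of -0.08 and 0.23 on the log2 scale. APOBEC3F was at 3.28 and 2.08 FPKM in shCtrl and 1.41 and 1.39 FPKM in shA3B cells, a change of 0.60, but its NC and A3B OE libraries overlapped in MEL290, with a change of -0.01. APOBEC3A, APOBEC3D, APOBEC3G and APOBEC3H were below 1 FPKM in at least one library and were not tested. These genes are paralogs, and how the authors' software divided reads that match several of them is not known.

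APOBEC3B was the only gene called over both lines, 1 of 10021 or 0.00998%, at a Benjamini-Hochberg adjusted p under 0.05 in limma. No gene was called lower. Without adjustment, 1188 genes (11.9%) had p under 0.05 in the fit over both lines, 704 higher (7.03%) and 484 lower (4.83%) in A3B-high libraries. The stricter question, whether a gene moved the same way in each line, used the larger of its 2 within-line p-values, and again called APOBEC3B alone (0.00998%; adjusted p = 6.03e-06, limma). At unadjusted p under 0.05 in each line, 35 genes (0.349%) had the same direction, 12 higher (0.12%) and 23 lower (0.23%). The mirror image, p under 0.05 in each line with opposite directions, held 90 genes (0.898%), 49 of them higher (0.489%) and 41 lower (0.409%) in A3B OE cells.

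ATG10 came next after A3B. It encodes the E2-like enzyme that joins ATG12 to ATG5 in autophagy. ATG10 was at 4.03 and 3.83 FPKM in shCtrl and 6.99 and 6.84 FPKM in shA3B cells, and at 8.64 and 6.81 FPKM in NC and 3.59 and 4.33 FPKM in A3B OE cells. Every A3B-high library lay below every A3B-low library, also across the lines. The difference was -0.75 over both lines (standard error 0.11, adjusted p = 0.16, limma), -0.68 in 92.1 and -0.81 in MEL290. The unadjusted limma p was 0.000932 in 92.1 and 0.000263 in MEL290. ATG10 therefore did not pass the threshold over all genes.

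A further 5 genes were lower in the A3B-high libraries of each line by the rule used to name genes, and none passed the adjustment (adjusted p = 0.38 for each, limma). CLU encodes clusterin, a secreted chaperone. It was at 6.07 and 10.0 FPKM in shCtrl and 13.3 and 12.7 FPKM in shA3B cells, and at 115 and 66.7 FPKM in NC and 35.6 and 29.0 FPKM in A3B OE cells, a difference of -1.04 over both lines (standard error 0.21). The NC libraries differed widely from each other, but the groups did not overlap in either line. SMIM14, which encodes a small membrane protein, was at 3.38 and 2.56 FPKM in shCtrl and 5.43 and 3.803 FPKM in shA3B cells, and at 14.6 and 13.4 FPKM in NC and 7.08 and 9.55 FPKM in A3B OE cells. ETFDH passes electrons from mitochondrial flavoproteins to ubiquinone. It was at 4.17 and 4.61 FPKM in shCtrl and 7.93 and 7.03 FPKM in shA3B cells, and at 11.7 and 9.13 FPKM in NC and 6.68 and 8.66 FPKM in A3B OE cells. The lowest ETFDH value of NC was only slightly above the highest of A3B OE. DPH3, which acts in diphthamide synthesis, differed by -0.39 in 92.1 and -0.54 in MEL290, and SIPA1L1, a Rap GTPase-activating protein, by -0.41 and -0.85.

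The genes higher in A3B-high libraries of each line showed smaller differences. ERF, an ETS-family repressor controlled by ERK, was at 80.4 and 103 FPKM in shCtrl and 74.8 and 66.0 FPKM in shA3B cells, and at 57.0 and 62.2 FPKM in NC and 85.5 and 82.8 FPKM in A3B OE cells. Its difference was 0.43 over both lines (standard error 0.09), and the nearest shCtrl and shA3B libraries stood 80.4 against 74.8 FPKM. RAD51B, which acts in homologous recombination, was at 7.41 and 5.42 FPKM in shCtrl and 4.68 and 4.81 FPKM in shA3B cells, and at 3.74 and 4.91 FPKM in NC and 6.504 and 7.003 FPKM in A3B OE cells, a difference of 0.45 (standard error 0.12). For RAD51B all 4 A3B-high libraries lay above all 4 A3B-low libraries. ZNF653, a zinc finger protein, differed by 0.46, SPOUT1, a putative RNA methyltransferase, by 0.40, and NPAS1, a bHLH-PAS transcription factor, by 0.44. Each of these 5 genes had an adjusted p of 0.38 in limma.

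**Figure D1:**
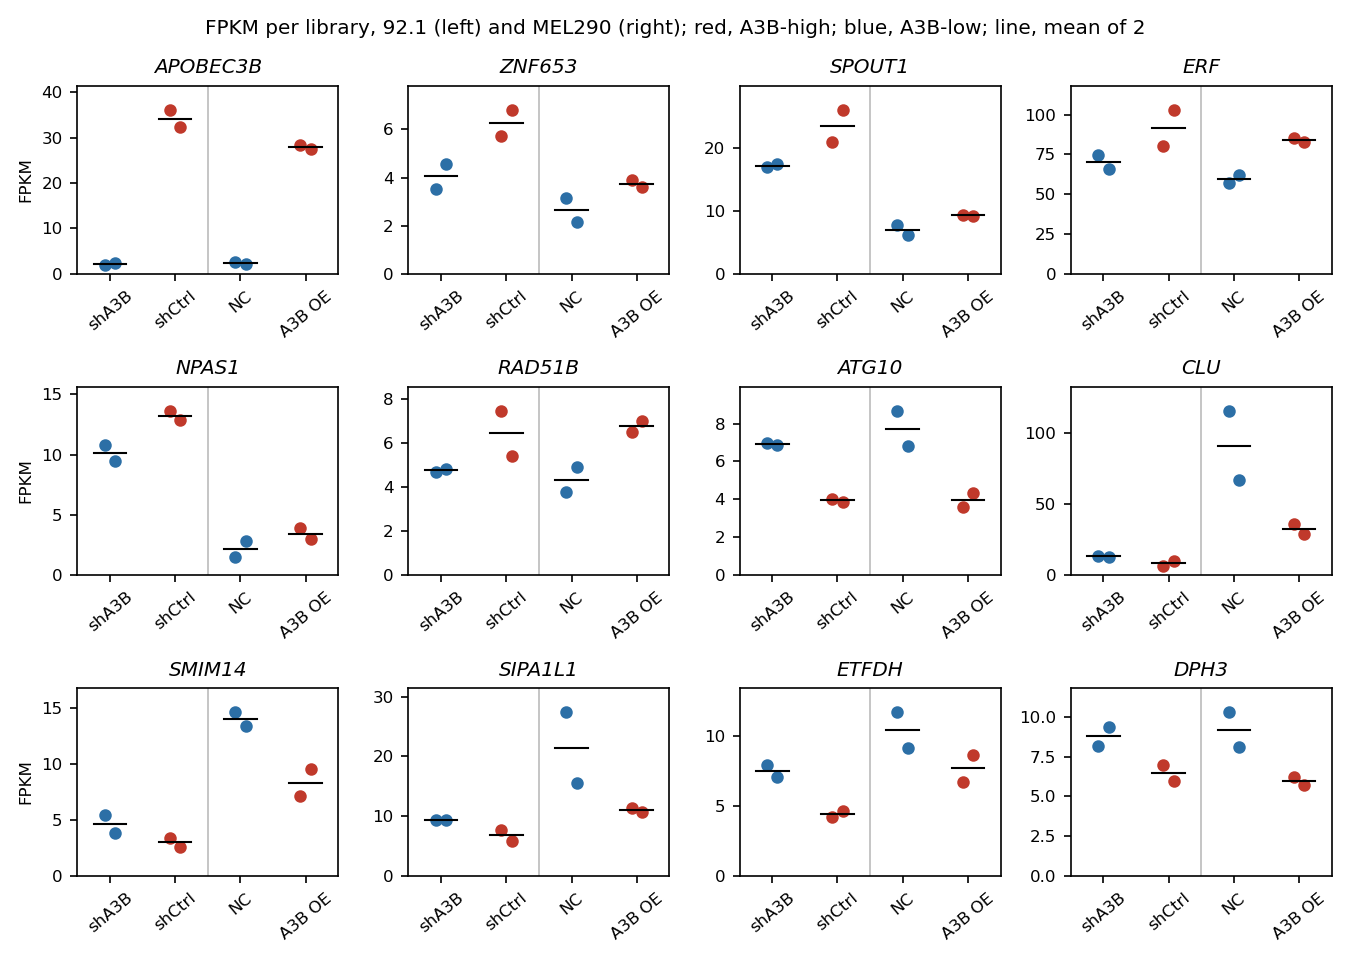
FPKM of APOBEC3B, the 5 other named genes that were higher and the 6 that were lower in the A3B-high libraries of each line, 1 panel per gene, with FPKM on a linear axis starting at 0. Each point is a library (red, A3B-high, and blue, A3B-low), short lines are means of 2 libraries, and the vertical line separates 92.1 from MEL290. APOBEC3B is separated by far the most, from 1.98 to 2.67 FPKM up to 27.5 to 35.95 FPKM.

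The panels of FPKM by library also show the distance between the lines. SPOUT1, for example, was at 17.0 to 25.9 FPKM in 92.1 and 6.17 to 9.35 FPKM in MEL290. These genes were chosen because their groups did not overlap, so the lack of overlap is a description and carries no test.

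The 35 genes with p under 0.05 in each line were read as a list after their values were seen. Besides APOBEC3B, the 12 higher genes were ERF, S100A6, JADE2, ARHGEF17, JUNB, SPOUT1, CCDC85C, POLR2F, RRAS, FAM24B and ZNF653. JUNB, an AP-1 transcription factor induced by growth signals, differed by 0.35 in 92.1 and 0.58 in MEL290, and S100A6, a calcium-binding protein, by 0.29 and 0.55. The small GTPase RRAS differed by 0.32 and 0.27. Among the 23 lower genes were HERPUD1, a protein of endoplasmic reticulum-associated degradation, with -0.24 in 92.1 and -0.44 in MEL290, OXCT1, which starts the use of ketone bodies, with -0.32 and -0.43, NUCB2, the nesfatin precursor, with -0.38 and -0.39, and PIAS2, a SUMO ligase, with -0.44 and -0.38. KRT18 was also among them. It was at 2.85 to 4.09 FPKM in 92.1 and at 770 to 1298 FPKM in MEL290, where the A3B OE libraries were the lower ones. In MEL290 alone KRT18 fell by 0.66 in A3B OE cells (adjusted p = 0.0036, limma), and in 92.1 its difference was -0.25. The summed level of 6 epithelial markers was lower in the A3B-high libraries of both lines. It was nearly all KRT8 and KRT18 in MEL290 and mostly KRT18 in 92.1, so it largely restates these genes. Of the markers under 1 FPKM in 92.1, KRT8 was lower and CDH1 higher in both shCtrl libraries. Whether a change in the mix of cells took part was not tested.

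The higher and lower genes of this list differed in median GC content, with overlap. The median GC content of the canonical transcript was 58.0% for the 12 higher and 41.8% for the 23 lower genes, against 47.9% over all genes tested, while the lower gene KRT18 had 58.2% and the higher gene FAM24B 46.7%. To show the contrast, 90 bases of coding exon 4 follow for 2 of the lower and 2 of the higher named genes, read 5′ to 3′ on the strand of the gene from GRCh38, with G and C in capitals. The stretches are ATG10 at chr5:82164423-82164512 on the plus strand, SMIM14 at chr4:39556454-39556543, SPOUT1 at chr9:128827067-128827156 and ZNF653 at chr19:11487553-11487642, the last 3 on the minus strand.
ATG10: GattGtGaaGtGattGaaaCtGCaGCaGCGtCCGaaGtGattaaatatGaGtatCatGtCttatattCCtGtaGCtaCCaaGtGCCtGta
SMIM14: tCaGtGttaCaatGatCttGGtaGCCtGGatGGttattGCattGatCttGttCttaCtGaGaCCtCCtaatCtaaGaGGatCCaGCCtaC
SPOUT1: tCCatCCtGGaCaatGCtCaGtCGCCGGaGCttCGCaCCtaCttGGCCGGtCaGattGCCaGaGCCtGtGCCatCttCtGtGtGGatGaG
ZNF653: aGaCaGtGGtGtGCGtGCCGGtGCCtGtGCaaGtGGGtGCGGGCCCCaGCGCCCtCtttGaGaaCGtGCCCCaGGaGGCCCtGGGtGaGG
G and C make up 36 and 38 of the 90 bases of ATG10 and SMIM14, and 52 and 62 of those of SPOUT1 and ZNF653. The lower named gene CLU was left out, although its smaller within-line change, -0.66, was larger in size than the -0.49 of SMIM14. Its transcript had a GC content of 49.98%, above the 47.9% of all genes tested. The choice of examples thus favours the contrast, and the stretches are an illustration only.

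The same contrast ran through the whole transcriptome of 92.1. Across 9855 genes with a matched transcript, the difference of shCtrl minus shA3B had a Spearman correlation of 0.513 with GC content in 92.1, whereas A3B OE minus NC had one of -0.01 in MEL290. These are correlations across genes that share the same libraries and are given as a description. The decile of genes with the lowest GC content had a median difference of -0.13 and the decile with the highest 0.12 in 92.1, against 0.01 and 0.00 in MEL290. The trend also separated replicates. Relative to the mean of its line, shCtrl replicate 2 had its highest GC decile 0.33 above its lowest, shCtrl replicate 1 was at -0.08, shA3B replicate 1 at -0.02 and shA3B replicate 2 at -0.22. The A3B OE libraries stood at 0.10 and -0.12 and the NC libraries at 0.00 and 0.03. In 92.1, then, 1 library of each group carried most of the trend.

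Genes were also counted without a threshold on p. In 790 genes (7.88%) the libraries of the A3B-high group lay all above or all below those of the A3B-low group in the same direction in both lines, 384 higher (3.83%) and 406 lower (4.05%). In opposite directions the count was 925 (9.23%), 488 higher (4.87%) and 437 lower (4.36%) under A3B overexpression. The split of the opposite set depended on the scaling. It was 715 higher and 298 lower with upper quartile scaling, 429 and 524 with quantile normalization, and 422 and 550 with the GC and length trend removed. More genes were thus split between the lines than shared by them. The order turned round without A3B OE replicate 2, with 1173 genes in the same and 1152 in opposite directions. With 1 library left in a group, non-overlap is reached more easily, and without each of the 92.1 libraries 1704 to 2138 genes had the same direction (2138 without shCtrl replicate 1, 1704 without shCtrl replicate 2, 1851 without shA3B replicate 1 and 1721 without shA3B replicate 2). The opposite counts were then 2257, 1923, 2101 and 1809.

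GC content again went with these sets, in step with the 92.1 direction. Genes higher in both lines had a median GC content of 55.1% and those lower in both 42.4%, while the opposite sets had 41.9% where the gene was lower in shCtrl and 53.8% where it was higher in shCtrl. Of the 384 genes higher in both lines, 64 (16.7%) lay on chromosome 19, against 4 of the 406 lower in both and 6.96% of all genes tested. The share was 3.69% in the opposite set lower in shCtrl and 5.49% in that higher in shCtrl, so it did not follow the 92.1 direction as GC content did. After a smooth trend on GC content and transcript length was removed from each library, 230 of the 378 higher genes with a GC value and 262 of the 401 lower ones still did not overlap in the same direction.

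**Figure D2:**
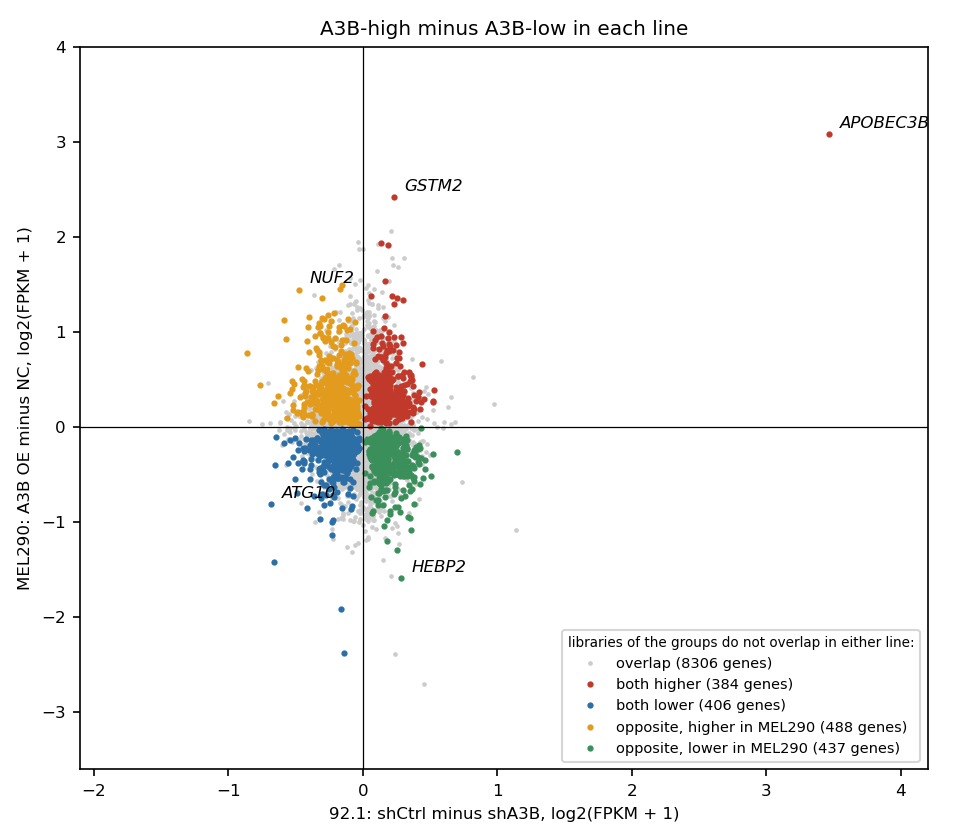
A3B-high minus A3B-low difference in 92.1 (horizontal) and MEL290 (vertical), in log2(FPKM + 1), for the 10021 genes tested. Colours mark genes whose groups did not overlap in either line: 384 higher in both (red), 406 lower in both (blue), 488 and 437 in opposite directions (orange and green), grey for the rest, and APOBEC3B stands alone at 3.47 and 3.08.

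Across all 10021 genes the changes in the lines had a Pearson correlation of -0.03 and a Spearman correlation of -0.05, a description over genes that share libraries. The signs were the same for 48.6% of genes. These values turned on single libraries. Without A3B OE replicate 1 the Pearson and Spearman correlations were -0.09 and -0.11, with the same sign for 46.2% of genes. Without A3B OE replicate 2 they were 0.04 and 0.03, with 51.5%. As the plot of one line against the other shows, MEL290 spread more widely, with a median absolute difference of 0.18 against 0.10 in 92.1. The standard error of a difference had a median of 0.14 in each line, equal by construction because all groups shared 1 estimate of the spread. Replicates differed by a median of 0.162 in shCtrl, 0.142 in shA3B, 0.108 in NC and 0.128 in A3B OE cells. Fits of each line alone used the spread of that line only.

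Each line alone gave a different number of calls. In 92.1, limma called 1 gene (0.00998%), APOBEC3B, and in MEL290 it called 1598 (15.9%), 907 higher (9.05%) and 691 lower (6.9%). The 92.1 count rested on few libraries. It was 3 with shCtrl replicate 2 left out, 14 without shA3B replicate 1 and 10 without shA3B replicate 2. Leaving out A3B OE replicate 1 or 2 gave 843 or 788 genes in MEL290. Leaving APOBEC3B aside, 724 (45.3%) of the 1597 genes called in MEL290 had the same sign in 92.1, against 48.6% of all genes, 175 (11.0%) did not overlap in the same direction in both lines, and 269 (16.8%) did so in opposite directions, against 7.88% and 9.23% of all genes. A gene called in MEL290 is more likely not to overlap there, so both shares are raised by the selection.

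An average over the lines can come from one line. With 1 mean per group and the equal average of the within-line changes, limma called 328 genes (3.27%), 245 higher and 83 lower. Their median absolute change was 0.92 in MEL290 and 0.11 in 92.1, and 227 of them (69.2%) had the same sign in the lines. Of these 328 genes, 95 (29.0%) did not overlap in the same direction in both lines and 26 (7.93%) in opposite directions, against 7.88% and 9.23% of all genes. An average over the lines favours genes of the same direction by construction, so these shares describe the selection.

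Of the 53 tested genes of the G2/M list, many of which act in mitosis, 48 rose in A3B OE cells in MEL290 alone and 0 fell (limma, adjusted p under 0.05, against 9.05% and 6.9% of all genes), with a median difference of 0.90. In 92.1 the median was -0.11, and 38 of the 53 were lower in shCtrl cells, with 0 called. None was called as following A3B in both lines and 0 had p under 0.05 in each line. The groups did not overlap in opposite directions for 20 of them (37.7%, against 9.23% of all genes) and in the same direction for 4 (7.55%, against 7.88%), namely BIRC5, HJURP, CENPA and GAS2L3. The change differed between the lines for 39 of the 53, against 4.96% of all genes. In RNA from bulk cultures, fewer cells in a phase and less RNA per cell cannot be told apart.

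NUF2, a subunit of the NDC80 kinetochore complex, had opposite directions in the lines. It was at 13.3 and 12.7 FPKM in shCtrl and 17.8 and 18.98 FPKM in shA3B cells, but at 6.49 and 6.35 FPKM in NC and 17.0 and 21.7 FPKM in A3B OE cells. The A3B-high libraries were thus the lower ones in 92.1 and the higher ones in MEL290. The change differed by 1.92 between the lines (adjusted p = 0.0024, limma). BIRC5, the survivin gene of the chromosomal passenger complex, was at 64.7 and 64.2 FPKM in shCtrl and 62.0 and 60.1 FPKM in shA3B cells, and at 29.4 and 28.9 FPKM in NC and 53.6 and 54.8 FPKM in A3B OE cells. It was higher in all A3B-high libraries, yet its difference was 0.08 in 92.1 against 0.87 in MEL290. HJURP, the chaperone that deposits the centromeric histone CENPA, had differences of 0.16 and 1.05, and CENPA itself had 0.18 and 0.81.

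Of 42 S phase genes tested, 29 rose and 0 fell in MEL290 (9.05% and 6.9% of all genes), where the median was 0.63, while in 92.1 it was -0.10, with 37 of 42 lower in shCtrl cells and 0 called. The groups did not overlap in opposite directions for 15 (35.7%, against 9.23% of all genes) and in the same direction for 1 (2.38%, against 7.88%), CDC45. CDC45, a subunit of the CMG helicase that unwinds DNA at forks, was at 34.7 and 37.2 FPKM in shCtrl and 34.0 and 32.2 FPKM in shA3B cells, and at 7.32 and 5.95 FPKM in NC and 11.3 and 12.2 FPKM in A3B OE cells. Its difference was 0.12 in 92.1 and 0.75 in MEL290, and 0.43 over both lines (adjusted p = 0.38, limma). Of 21 genes of the CMG helicase and origin licensing, a list that shares members with the S phase list, 13 rose in MEL290 and 0 fell, with medians of -0.04 in 92.1 and 0.57 in MEL290. In 92.1, 7 of the 21 were higher in shCtrl cells and 0 were called. MCM6, GINS2, GINS3, CDC6 and GMNN were the 5 of them (23.8%) with opposite directions and no overlap. GMNN encodes geminin, which blocks relicensing. Its difference was -0.12 in 92.1 and 1.03 in MEL290, and differed between the lines (adjusted p = 0.01, limma).

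Of the 17 tested genes of the ATR-CHK1 checkpoint, 4 rose and 0 fell in MEL290 (9.05% and 6.9% of all genes), with 0 called in 92.1, 0 as following A3B in both lines, and 0 with p under 0.05 in each line (limma). TOPBP1, CLSPN, TIMELESS, TIPIN and WEE1 had opposite directions and no overlap, 5 of 17 (29.4%, against 9.23% of all genes), and 0 of 17 had the same direction without overlap (7.88% of all genes). The medians were -0.14 in 92.1 and 0.31 in MEL290. WEE1, the kinase that holds CDK1 inactive, was at 17.2 and 18.2 FPKM in shCtrl and 20.3 and 21.0 FPKM in shA3B cells, and at 8.91 and 9.72 FPKM in NC and 19.1 and 18.3 FPKM in A3B OE cells. The shCtrl libraries lay below the shA3B libraries and the A3B OE libraries above the NC libraries, and the change differed by 1.14 (adjusted p = 0.0072, limma). CHEK1, which encodes CHK1, had differences of 0.16 and 0.46, and its 92.1 groups overlapped.

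The list means by library place both shCtrl libraries below both shA3B libraries for these 4 lists, by 0.13 for G2/M, 0.12 for S phase, 0.07 for the helicase and licensing genes and 0.11 for the checkpoint. In MEL290 the A3B OE libraries were higher by 0.88, 0.62, 0.54 and 0.30. The median GC content was 42.1% for G2/M, 43.1% for S phase and 47.55% for the helicase and licensing genes, with the checkpoint between the last 2 of these, against 47.9% over all genes tested. With the trend on GC content and length removed, the 92.1 medians were -0.05 for G2/M, -0.06 for S phase, -0.04 for the helicase and licensing genes and -0.09 for the checkpoint, and the MEL290 medians were 0.89, 0.60, 0.53 and 0.26. Without shCtrl replicate 2 the 92.1 medians were -0.06, -0.08, -0.04 and -0.08.

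Genes for R-loops and for uracil in DNA, which A3B makes from cytosine, were not called as following A3B in both lines. RNASEH1, which degrades the RNA of RNA:DNA hybrids, overlapped in 92.1, with a difference of 0.02, and fell by 0.43 in A3B OE cells of MEL290 (adjusted p = 0.04, limma). Of the 18 R-loop genes tested, 5 rose and 1 fell in MEL290 (9.05% and 6.9% of all genes) and 0 were called in 92.1 or as following A3B in both lines, with 0 at p under 0.05 in each line (limma). BRCA1 rose in MEL290 and its change differed by 1.03 between the lines (adjusted p = 0.039, limma). Of 15 base excision repair genes tested, 4 rose and 2 fell in MEL290 (9.05% and 6.9% of all genes), 0 were called in 92.1 or in both lines (0 with p under 0.05 in each line, limma), and the groups of all 15 overlapped in at least one line. XRCC1, the scaffold of single-strand break repair, and PARP1, which senses such breaks, had differences of 0.09 and 0.06 in 92.1 and 0.70 and 0.63 in MEL290, while TDG, a glycosylase for mismatched thymine and uracil, had -0.02 and -0.52.

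Of 21 p53 target genes tested, 12 fell, 0 rose and 9 did not pass in A3B OE cells (limma, MEL290 alone, against 6.9% lower and 9.05% higher of all genes), with a median of -0.48. In 92.1 0 were called, 14 of the 21 were lower in shCtrl cells, and the median was -0.03. It became 0.03 without shCtrl replicate 2 and 0.07 without shA3B replicate 1, but -0.13 without shCtrl replicate 1 and -0.14 without shA3B replicate 2. CDKN1A, the CDK inhibitor p21, was at 24.2 and 16.6 FPKM in shCtrl and 32.4 and 20.8 FPKM in shA3B cells, and at 371 and 391 FPKM in NC and 194 and 185 FPKM in A3B OE cells. The 92.1 groups overlapped and the MEL290 groups stood far apart, with a difference of -0.35 in 92.1 and -1.004 in MEL290. BTG2, an antiproliferative gene, and XPC, a sensor of nucleotide excision repair, were the 2 of 21 lower in both lines without overlap (4.05% of all genes did so). TNFRSF10B and TP53I3 had opposite directions without overlap (9.52%, against 9.23% of all genes). BTG2 differed by -0.08 in 92.1 and -0.84 in MEL290, and this change differed between the lines (adjusted p = 0.043, limma). XPC differed by -0.16 and -0.10.

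Interferon genes were tested only in part, since 9 of the 23 listed reached 1 FPKM in every library. IRF9 and STAT2, transcription factors of interferon signalling, were the 2 of these 9 higher in both lines without overlap (3.83% of all genes did so). IRF9 was at 4.68 and 4.22 FPKM in shCtrl and 2.92 and 3.35 FPKM in shA3B cells, and at 28.2 and 23.8 FPKM in NC and 31.4 and 32.0 FPKM in A3B OE cells. Its difference was 0.40 in 92.1 and 0.28 in MEL290, and 0.34 over both lines (adjusted p = 0.38, limma). STAT2 differed by 0.12 and 0.30. Their target IFIT3 rose in MEL290, from 1.36 and 1.45 to 3.35 and 4.04 FPKM. In 92.1 IFIT3 was at 1.66 and 1.55 FPKM in shCtrl and 1.499 and 1.59 FPKM in shA3B cells, which overlapped, and the change differed by 0.93 (adjusted p = 0.03, limma). ISG15 differed by 0.33 in 92.1 and -0.54 in MEL290, with overlap in at least one line. In MEL290 alone it was called lower in A3B OE cells (adjusted p = 0.01, limma). A difference between the lines was not called for it (adjusted p = 0.17, limma). Of the 9 genes, 2 rose and 1 fell in MEL290 alone (9.05% and 6.9% of all genes), and 0 were called in 92.1. The list median was 0.09 in 92.1, or -0.09 without shA3B replicate 2, and 0.17 in MEL290.

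ERK output and stress genes gave a few shared members, with small changes in 92.1. SPRY2, SPRY4 and PHLDA1, all induced by ERK signalling, were the 3 of 12 tested ERK output genes higher in both lines without overlap (3.83% of all genes did so). SPRY2, a feedback inhibitor of the pathway, was at 24.2 and 25.2 FPKM in shCtrl and 22.1 and 21.3 FPKM in shA3B cells, and at 8.003 and 8.71 FPKM in NC and 9.68 and 10.5 FPKM in A3B OE cells. The difference was 0.18 in 92.1 and 0.25 in MEL290. PHLDA1 had 0.11 and 0.95, which differed between the lines (adjusted p = 0.015, limma), and MYC and SPRED2 went in opposite directions without overlap (16.7%, against 9.23% of all genes). Of 13 ATF4 target genes tested, PPP1R15A, the phosphatase subunit GADD34, and ATF4 were higher and PSAT1, of serine synthesis, lower in both lines without overlap (23.1%, against 7.88% of all genes). PPP1R15A was at 21.0 and 21.4 FPKM in shCtrl and 19.1 and 17.9 FPKM in shA3B cells, and at 24.7 and 23.5 FPKM in NC and 37.8 and 34.4 FPKM in A3B OE cells, with an adjusted p of 0.38 over both lines (limma).

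Of 17 sterol synthesis genes tested, 7 fell and 0 rose with A3B OE (6.9% and 9.05% of all genes), among them HMGCS1, an early enzyme of the mevalonate pathway, at 55.0 and 52.4 FPKM in NC and 27.0 and 30.9 FPKM in A3B OE cells. In 92.1 HMGCS1 was at 124 and 104 FPKM in shCtrl and 127 and 116 FPKM in shA3B cells, which overlapped, and the change differed by -0.78 (adjusted p = 0.03, limma). The list medians were -0.01 in 92.1, where 9 of the 17 genes were lower in shCtrl cells, and -0.35 in MEL290. With the trend on GC content and length removed, the 92.1 median was 0.04 and 3 of the 17 were lower in shCtrl cells. Of 12 hypoxia-responsive genes tested, 6 rose and 0 fell in MEL290, led by NDRG1, which went from 17.6 and 22.1 to 101 and 72.3 FPKM, while in 92.1 it was at 5.62 and 4.47 FPKM in shCtrl and 4.48 and 3.95 FPKM in shA3B cells. KDM3A, a histone demethylase, was the 1 of 12 hypoxia genes with the same direction in both lines without overlap (8.33%, against 7.88% of all genes). It was higher by 0.19 and 0.05. In 92.1 0 genes of either list were called, and 0 had p under 0.05 in each line (limma).

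The change differed between the lines for 497 genes (4.96%) by the test of the difference, with 324 (3.23%) more positive and 173 (1.73%) more negative in MEL290. The count was 171 to 229 without shCtrl replicate 2 (194), shA3B replicate 2 (188), NC replicate 1 (229), NC replicate 2 (171), A3B OE replicate 1 (179) or A3B OE replicate 2 (172), and 772 with the GC and length trend removed. The split became 424 more positive and 348 more negative in that fit, and 451 and 148 with upper quartile scaling.

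Among genes without overlap in either line, GSTM2, a glutathione S-transferase, differed most in the positive direction. It was at 13.5 and 15.5 FPKM in shCtrl and 12.4 and 11.9 FPKM in shA3B cells, but at 1.23 and 1.90 FPKM in NC and 12.5 and 12.6 FPKM in A3B OE cells. GSTM2 was thus higher with A3B in both lines, by 0.23 and 2.42, and the A3B OE level came to that of 92.1. It has close paralogs whose reads could be shared. GLUL, glutamine synthetase, was also higher with A3B in both lines. It was at 66.9 and 67.8 FPKM in shCtrl and 66.8 and 56.0 FPKM in shA3B cells, where 66.9 and 66.8 FPKM nearly met. In MEL290 it was at 5.61 and 6.15 FPKM in NC and 27.4 and 23.4 FPKM in A3B OE cells, below its level in 92.1. Its difference was 0.14 in 92.1 and 1.94 in MEL290 (difference of 1.80, adjusted p = 0.0024, limma).

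In the negative direction stood HEBP2, ADGRG1 and DTNA. ADGRG1, an adhesion G protein-coupled receptor, was at 8.85 and 8.64 FPKM in shCtrl and 10.9 and 8.92 FPKM in shA3B cells, and at 20.2 and 15.9 FPKM in NC and 4.011 and 3.997 FPKM in A3B OE cells. It was lower with A3B in both lines, by a difference of -0.16 in 92.1, where 8.85 and 8.92 FPKM nearly met, and -1.92 in MEL290. HEBP2, a heme-binding protein, was at 17.6 and 19.2 FPKM in shCtrl and 17.2 and 12.9 FPKM in shA3B cells, and at 20.6 and 34.7 FPKM in NC and 6.67 and 10.2 FPKM in A3B OE cells. The difference between the lines was -1.87 (adjusted p = 0.018, limma), which did not pass without shCtrl replicate 2 (adjusted p = 0.078), shA3B replicate 2 (adjusted p = 0.072) or A3B OE replicate 1 (adjusted p = 0.058). DTNA, dystrobrevin alpha, had a difference of -1.55 (adjusted p = 0.031, limma). It did not pass without any one of the 4 libraries of 92.1 or of the 2 A3B OE libraries, where the adjusted p was between 0.05 and 0.1.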

How the data were processed

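RNA-seq libraries of 92.1 and MEL290 cells were analysed, 2 per group and 8 in all. Per the labels and the paper's methods, the authors sequenced total RNA as paired-end reads, aligned them to GRCh38 with STAR and computed FPKM over Ensembl release 75 genes with Cufflinks. The deposited values are FPKM, normalized to transcript length and mapped fragments, so read counts and depth were not recovered and no count test was used. The authors' Cuffdiff test starts from reads and was not run. Kit and counting are not stated to use strand, so overlapping antisense genes cannot be separated.

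Values were transformed as log2(FPKM + 1), a scale on which the pseudocount of 1 understates the change of low genes, and genes with FPKM of at least 1 in every library were tested with limma 3.58.1 (lmFit and eBayes with trend) in R 4.3.3. Tests were two-sided, with Benjamini-Hochberg adjustment over all genes and a threshold of 0.05. The fit over both lines was additive in cell line and A3B level. Genes following A3B in both lines were tested with 1 mean per group, taking the larger of the 2 within-line p-values, or 1 for opposite signs. The difference between lines and each line alone were tested as well. For a single value, permuting libraries within lines gives 36 arrangements and no two-sided p below 0.056, so no permutation test was used. Positions, transcript GC content and length came from GENCODE release 44, in which 19033 of the 19952 symbols matched. Values of 0 can be failed estimates and are described as listed at 0.

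Named genes were APOBEC3 genes and RNASEH1, the 6 per direction with the largest smaller-of-2 within-line change among non-overlapping genes averaging 4 FPKM or more, the 3 per direction with the largest called difference between lines under the same limits on level and overlap, and up to 4 of each list, with those outside these rules named after their values were seen. Lists covered APOBEC3, base excision repair, R-loop, CMG helicase and licensing, ATR-CHK1, S and G2/M phase (gene lists of the Seurat package), p53, interferon, NF-kB, ATF4, hypoxia, sterol, ribosome biogenesis, YAP/TAZ, ERK, HLA class I and matrix genes and cell type markers. The members and lists were chosen with earlier results of these data known, and no set test was run. The method was tested on simulated data. Alternatives were limma without trend, quantile and upper quartile normalization, 3 other filters, a pseudocount of 0.1, removal of a spline trend (5 degrees of freedom each) on GC content and length, 1 mean per group, a minimum log2 change of 0.5, each line fitted alone, a block on the replicate number, and leaving out single libraries. Some list members are not reported here.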

Additional observations from a re-analysis of the deposited data

Results flagged for a closer look

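The change from A3B-low to A3B-high differed between the lines, by the limma test of the difference at an adjusted p under 0.05, for 497 genes. Values here are the change in MEL290 less the change in 92.1 on the log2(FPKM + 1) scale. Among the genes named, those with the larger positive values were GSTM2 with 2.19, NUF2 with 1.92, NDRG1, a hypoxia-responsive gene, with 1.86 and GLUL with 1.80. Genes of replication and the cell cycle in this group were RRM2, a ribonucleotide reductase subunit, with 1.16, GMNN with 1.14, WEE1 with 1.14, BLM, a RecQ helicase, with 1.04, BRCA1 with 1.03, MCM2 with 0.92, HJURP with 0.89 and BIRC5 with 0.80. Further positive values were those of IFIT3 with 0.93, PHLDA1 with 0.84 and FBL, the nucleolar methyltransferase fibrillarin, with 0.68. The negative values were those of HEBP2 with -1.87, ADGRG1 with -1.76, DTNA with -1.55, DHCR7, the last enzyme of cholesterol synthesis by one route, with -0.85, HMGCS1 with -0.78 and BTG2 with -0.76. Of these, GSTM2, GLUL, PHLDA1, HJURP, BIRC5, ADGRG1 and BTG2 kept the same direction without overlap in both lines and differed in the size of the change.

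For 4 gene lists every A3B-high library lay below every A3B-low library in 92.1 and above in MEL290 when the tested genes were averaged, and this difference of the list means was not tested. It was 1.01 for G2/M phase, 0.74 for S phase, 0.61 for the CMG helicase and origin licensing, and 0.41 for the ATR-CHK1 checkpoint. The lists share members, so these values are not independent.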

How the results depend on the processing

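The 1 gene called over both lines stayed 1 under every alternative except a filter at 4 FPKM in all libraries, which gave 0 (929 genes at unadjusted p under 0.05) because APOBEC3B is below that level in the A3B-low libraries, and 1 mean per group with the average of the lines, which gave 328, with a difference between the lines left out of the spread. The 1 gene following A3B in both lines became 0 under the same filter. With each library left out both counts were 1. In 92.1 alone the count was 0 with an FPKM of at least 1 in 4 libraries, without a filter and with the filter at 4, and 1 to 14 with a library left out. In MEL290 alone 1598 became 203 without a filter, and the range with a library left out was 788 to 1736. The 497 genes with a different change became 772 with the GC and length trend removed, and 171 to 389 with a library left out. Genes without overlap numbered 991 to 2138 in the same and 1152 to 2257 in opposite directions with a library left out. The alternatives for opposite directions were chosen after seeing the data. Where a library is left out, the lone library of its group is assumed to vary like the others. The cause of the other changes was not tested. WDR12, a ribosome biogenesis factor, had a value of -0.12 over both lines, with a range of -0.2452 to 0.000623 with a library left out, the sign changing without shA3B replicate 2. Of the other values of named genes, 1442 kept direction and call and 11 no longer passed (HEBP2 and DTNA). No scaling moved the median of all genes by more than 0.1. Low FPKM limits what can be read, since depth is unknown.

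With the replicate number as a block within each line, 10 genes were called in 92.1 alone, 6 higher and 4 lower, 1139 in MEL290 alone, 505 for the difference between the lines, and 1 over both lines and in both lines. Libraries with the same number deviated from their group means with a correlation of 0.137 in 92.1 and -0.05 in MEL290, and no label says what a number shares, so the numbers are not taken to pair the libraries.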

Other observations

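Genes with the same direction in both lines without overlap are counted here beside the 7.88% of all genes that had it, and those in opposite directions beside 9.23%. Genes called in MEL290 are counted beside the 9.05% called higher and 6.9% called lower. Of 9 tested YAP/TAZ target genes, ARHGEF17, a guanine nucleotide exchange factor, was higher in both lines without overlap, at 10.4 and 10.6 FPKM in shCtrl and 8.74 and 7.65 FPKM in shA3B cells, and at 10.5 and 11.6 FPKM in NC and 15.5 and 15.4 FPKM in A3B OE cells. Its difference was 0.33 in 92.1 and 0.46 in MEL290, and 0.39 over both lines (adjusted p = 0.38, limma). CCN2, a matricellular target of the same factors, fell in MEL290 from 148 and 164 to 93.2 and 95.7 FPKM and was at 1.34 to 2.09 FPKM in 92.1. Of 7 tested NF-kB target genes, NFKBIA, the inhibitor that NF-kB induces, was higher in both lines without overlap, with differences of 0.08 and 0.40, and IER3 went in opposite directions.

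Of 13 tested matrix and adhesion genes, 3 rose and 1 fell in MEL290 and 0 were called in 92.1 (limma). FN1, fibronectin, was at 229 and 228 FPKM in NC and 309 and 299 FPKM in A3B OE cells, and ITGA3, a laminin-binding integrin subunit, at 260 and 252 against 416 and 414 FPKM. In 92.1 the FN1 groups overlapped between 3.93 and 8.74 FPKM and the ITGA3 groups between 5.17 and 7.58 FPKM. SPARC and TIMP1 went in opposite directions without overlap, and 0 of the 13 kept one direction.

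Of 14 HLA class I genes tested, 1 rose and 2 fell in MEL290, and 0 kept one direction in both lines without overlap, with PSMB8 and TAPBP in opposite directions. HLA genes are highly polymorphic paralogs and their values are uncertain. Of 16 ribosome biogenesis genes tested, 2 rose in MEL290, FBL and NCL, and 0 kept one direction without overlap, with BOP1 and RRS1 in opposite directions. FBL was at 179 and 187 FPKM in NC and 324 and 291 FPKM in A3B OE cells, and at 262 to 289 FPKM in 92.1, where its groups overlapped. In 92.1, 0 genes of these 2 lists were called, with 0 at p under 0.05 in each line (limma).

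Among the other marker lists, the 2 melanocyte genes that could be tested, MITF and GPR143, were not called in any comparison. MITF was at 67.0 to 81.4 FPKM in 92.1 and 13.7 to 19.6 FPKM in MEL290, and its groups overlapped in both lines. GPR143 overlapped in 92.1 and was lower in A3B OE cells, at 14.8 and 16.2 FPKM against 17.7 and 18.7 FPKM in NC. The summed level of the 6 epithelial markers was 3.75 to 4.24 FPKM in shCtrl and 5.03 to 5.67 FPKM in shA3B cells, and 2548 to 2584 FPKM in NC and 1680 to 1897 FPKM in A3B OE cells, so it was lower in the A3B-high libraries of both lines. Most of it was KRT18 in 92.1 and KRT8 and KRT18 in MEL290. EPCAM and KRT5 were under 1 FPKM in all libraries. The fibroblast marker COL1A1 was at 1.67 to 2.92 FPKM in 92.1 and 26.9 to 40.7 FPKM in MEL290, with COL1A2, COL3A1 and DCN under 1 FPKM throughout. Of the leukocyte markers CD68 alone reached 1 FPKM, at 14.5 to 35.0 FPKM, both ends in the shCtrl libraries.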
